A study of Homo sapiens with 30 samples.

Results

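The comparison described here asked what a month of RB1 depletion did to prostate cancer cells under androgen. C4-2-tet-shRB cells are a prostate cancer line in which doxycycline switches on a short hairpin RNA that targets RB1. They were grown with dihydrotestosterone (DHT, 10 nM for 24 hours) after 30 days of doxycycline (0.05 µg/ml) or with no doxycycline. The members are 4 of the series' 30 sequencing columns, and these are 2 lanes each of 2 libraries, so each group is 1 library. The other 4 libraries of the same table had vehicle or DHT with 3 days of doxycycline, or vehicle with 0 or 30 days. All 6 were in RPMI with 8% charcoal-stripped and 2% regular serum, and all carry the hairpin. No library combined doxycycline with a control hairpin, so effects of RB1 loss, of doxycycline and of hairpin expression cannot be told apart. The labels do not say whether the line is 1 clone.

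RB1 encodes the retinoblastoma protein, which binds E2F transcription factors and holds back the genes they switch on for DNA replication. Genes of mitosis follow later in the cell cycle, and many of them are read through a promoter element called the cell cycle genes homology region (CHR), bound by complexes that contain RB family proteins or MYBL2 and FOXM1. In luminal prostate cells DHT switches on secretory and lipid genes such as KLK3.

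The promoters below are shown because the results turn on these sets of genes. They are the 3 E2F-driven genes with the highest ratio, and the 2 such genes of mitosis, among those that rose with doxycycline under DHT and hold the motif in RefSeq's window (GRCh38.p14, 250 bases before to 50 after the start). The genes of a particular chromosome were left out of this choice. Capitals mark an E2F motif in the first 3 and a CHR motif in the last 2.
CLSPN (chr1:35769929-35770228, minus strand): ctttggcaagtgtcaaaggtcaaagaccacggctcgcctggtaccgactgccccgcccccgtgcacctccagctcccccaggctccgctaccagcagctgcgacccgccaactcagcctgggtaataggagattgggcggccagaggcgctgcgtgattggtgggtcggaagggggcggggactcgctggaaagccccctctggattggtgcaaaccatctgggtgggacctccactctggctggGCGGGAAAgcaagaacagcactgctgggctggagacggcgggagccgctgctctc
POLE2 (chr14:49688165-49688464, minus strand): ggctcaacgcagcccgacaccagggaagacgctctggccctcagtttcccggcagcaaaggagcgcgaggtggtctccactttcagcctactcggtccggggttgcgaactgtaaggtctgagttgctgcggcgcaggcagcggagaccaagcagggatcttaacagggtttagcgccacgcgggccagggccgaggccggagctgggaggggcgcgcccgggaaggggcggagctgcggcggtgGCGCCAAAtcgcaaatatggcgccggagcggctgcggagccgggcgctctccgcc
TYMS (chr18:657403-657702, plus strand): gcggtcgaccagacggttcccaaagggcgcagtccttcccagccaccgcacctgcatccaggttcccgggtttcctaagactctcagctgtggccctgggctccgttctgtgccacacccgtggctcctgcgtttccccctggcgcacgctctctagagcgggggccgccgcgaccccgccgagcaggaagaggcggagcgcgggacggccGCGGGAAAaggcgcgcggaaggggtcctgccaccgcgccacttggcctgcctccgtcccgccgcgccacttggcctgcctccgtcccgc
MKI67 (chr10:128126374-128126673, minus strand): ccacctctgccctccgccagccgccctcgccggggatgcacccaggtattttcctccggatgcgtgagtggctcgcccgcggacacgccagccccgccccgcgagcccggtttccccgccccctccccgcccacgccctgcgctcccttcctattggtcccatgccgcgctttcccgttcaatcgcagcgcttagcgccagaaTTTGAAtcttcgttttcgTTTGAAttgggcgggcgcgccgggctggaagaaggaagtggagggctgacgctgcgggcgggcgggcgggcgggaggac
KIFC1 (chr6:33391573-33391872, plus strand): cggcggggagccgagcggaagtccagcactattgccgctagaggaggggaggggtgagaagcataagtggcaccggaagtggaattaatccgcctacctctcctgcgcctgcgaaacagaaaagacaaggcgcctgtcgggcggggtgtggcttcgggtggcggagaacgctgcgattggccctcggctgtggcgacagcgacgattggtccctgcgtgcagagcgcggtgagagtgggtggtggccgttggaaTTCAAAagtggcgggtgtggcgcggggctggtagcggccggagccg

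The E2F motif was searched as TTTCCCGC, TTTGGCGC, TTTCGCGC and TTTGCCGC and the CHR motif as TTTGAA, on both strands. CLSPN, a checkpoint protein of replication forks, and POLE2, a subunit of DNA polymerase epsilon, each held the E2F motif from base -5 to base 3 of the start. In TYMS, thymidylate synthase, it lay from -39 to -32. Of the E2F-driven G1/S genes, 50 of 61 had a RefSeq promoter and 27 of these held an E2F motif (54%). The share was 3.33% of all 27305 promoters and 5.36% of the 11248 matched to genes tested here. A CHR match was in 2 of the 50 (4%). Of the G2/M genes, 46 of 55 had a promoter, and 32 of these held a CHR match (69.6%) and 3 an E2F match (6.52%). The CHR letters were in 15.4% of all promoters and 9.6% of those of the genes tested. These shares describe letters in a window, not bound sites.

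RB1 itself checks the labels. RB1 (ENSG00000139687) stood at 51.1 CPM (read counts brought to a common library size, with the TMM scaling of edgeR) with DHT and no doxycycline, and at 6.23 CPM with DHT after 30 days. The log2 ratio was -3.01 (95% exact binomial interval of the counts -3.37 to -2.72). With vehicle the levels were 47.6 and 6.26 CPM, and after 3 days they were 7.90 CPM with vehicle and 10.0 CPM with DHT. Every doxycycline library was thus far below both libraries without it. RB1 fell by 2.98 ± 0.11 on the log2 scale in an additive model with terms for doxycycline duration and for DHT (SE, n = 2 libraries per level, edgeR adjusted p = 1.59e-16). KDM1A, the histone demethylase LSD1, stood at 108 and 111 CPM in the DHT pair and was not called (edgeR adjusted p = 0.972 with pooled durations).

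A pair of single libraries has no spread, so 3 measures are given. The ratio of the DHT pair has a counting interval only. The additive model tests 30 days averaged over vehicle and DHT. A second model took 3 and 30 days as 2 samples of doxycycline with 1 library without it (pooled durations), and tests doxycycline with DHT and its difference from the effect with vehicle. Each model has 2 residual degrees of freedom, and "rose" and "fell" refer to an adjusted p under 0.05 in 1 of them. The single library with DHT and no doxycycline enters every value with DHT and cannot be replaced. The labels name no separate cultures, and no spread between replicate libraries of a condition enters the p-values. The additive model takes the vehicle and the DHT library of a doxycycline level as replicates. Its spread is how the doxycycline effect differed between the media. The second model takes its spread from the difference between 3 and 30 days. Either spread may also hold technical differences.

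Of 11976 genes with at least 100 counts in the DHT pair, 31 were at least 2-fold higher after 30 days (0.259%) and 9 at least 2-fold lower (0.0752%). The median log2 ratio was -0.01. In the vehicle pair, which shares no library with it, 29 of the 31 were above 0 and 4 were also past 2-fold, and 8 of the 9 were below 0 and 2 past 2-fold. Both models contain the 2 libraries that picked these genes, so the counts that follow describe the genes and support nothing. In the additive model 26 of the 31 rose, where 2.51% of 17300 genes were called higher. Of the 9, 6 fell, where 1.52% were called lower. With pooled durations 14 of the 31 rose with DHT (1.99% of all genes called higher) and 2 of the 9 fell (0.832% called lower). Under 300 counts lay behind 21 of the 31 rises and 5 of the 9 falls, so single values there are imprecise.

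**Figure D1:**
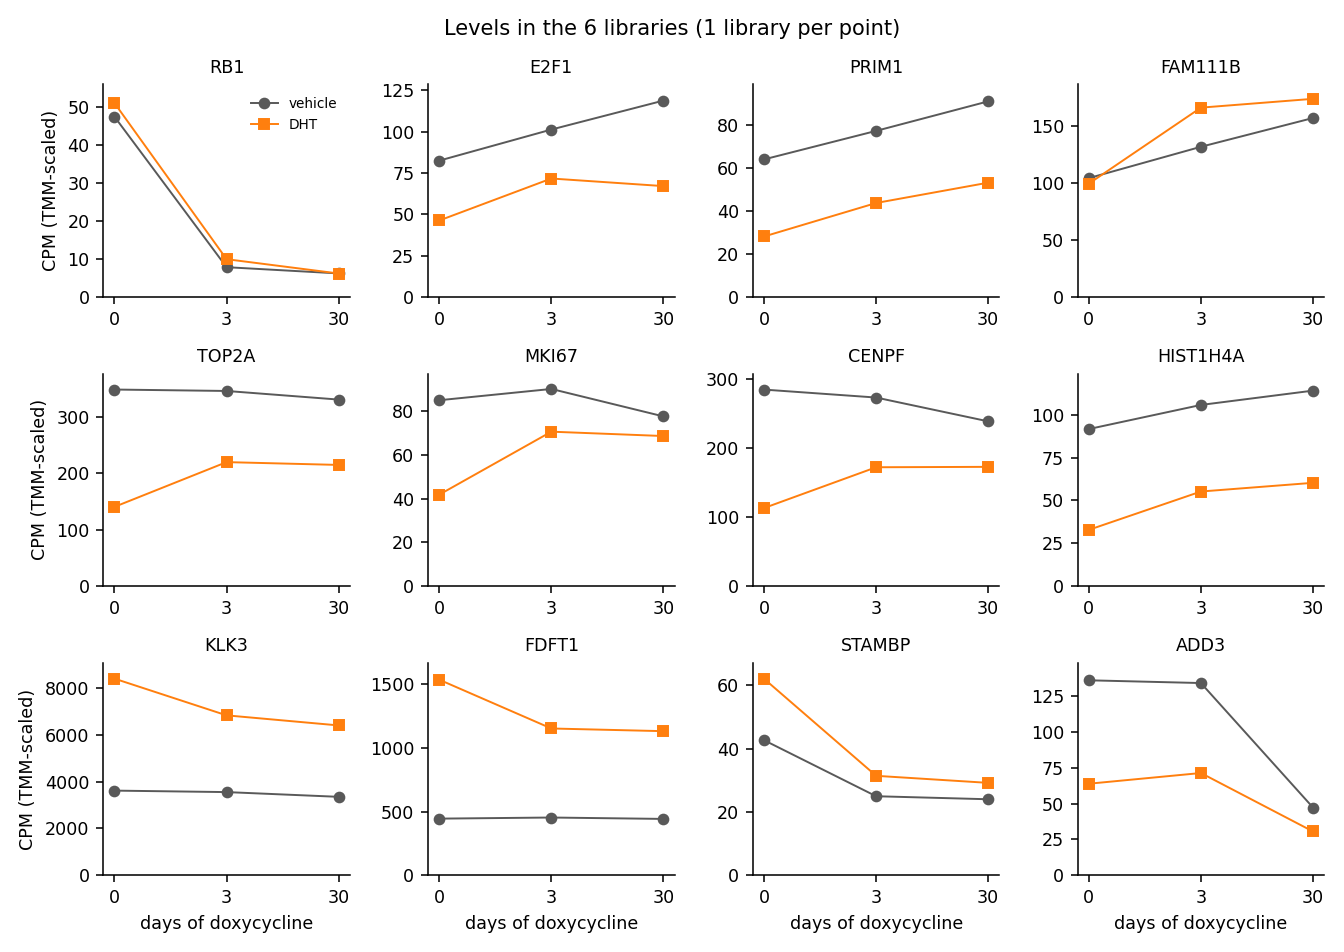
Levels of 12 genes in TMM-scaled CPM (vertical axes from 0) against days of doxycycline (horizontal axis, 0, 3 and 30, evenly spaced), with 1 point per library; circles are vehicle, squares DHT, and there are no replicates. RB1 was low in all 4 doxycycline libraries, MKI67 went from 41.8 to 68.6 CPM with DHT but from 84.9 to 77.5 CPM with vehicle, and ADD3 was low only at 30 days.

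Genes of DNA replication were higher after 30 days with DHT across the whole list. All 61 E2F-driven G1/S genes had a ratio above 0, with a median log2 ratio of 0.46 and a range of 0.11 to 0.91, and none reached 2-fold. With pooled durations 40 of 61 rose and 0 fell, and in the additive model 42 rose and 0 fell (18 rose by DESeq2, and 21 to 53 with 1 library left out, lowest without the 30-day DHT library). Of all 17300 genes, 1.99% were called higher and 0.832% lower with pooled durations, and 2.51% and 1.52% in the additive model. E2F1, the activator that RB1 holds back, was at 46.3, 71.7 and 67.1 CPM with DHT after 0, 3 and 30 days. With vehicle it was at 82.5, 101 and 119 CPM. Both doxycycline libraries lay above the untreated one in either medium. E2F1 rose by 0.52 ± 0.08 in the additive model (edgeR adjusted p = 0.000268) and by 0.59 ± 0.11 with DHT (adjusted p = 0.00549).

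PRIM1, the catalytic subunit of primase, had the highest ratio of the list. Its level was 28.2, 43.8 and 53.2 CPM with DHT after 0, 3 and 30 days and 64.0, 77.3 and 91.0 CPM with vehicle. It rose by 0.67 ± 0.09 in the additive model (edgeR adjusted p = 2.94e-05), and the DHT pair's ratio of 0.91 had an interval of 0.74 to 1.10. FAM111B, a protease linked to replication, was at 99.5, 166 and 174 CPM with DHT and 104, 132 and 157 CPM with vehicle, and rose by 0.69 ± 0.08 (adjusted p = 3.99e-06). CLSPN was at 8.96, 17.1 and 15.0 CPM with DHT and 14.4, 18.1 and 22.8 CPM with vehicle. POLE2 was at 11.9, 17.7 and 19.9 CPM with DHT and 20.3, 25.4 and 24.9 CPM with vehicle. For these 4 genes the untreated library was the lowest within each medium. MCM2, a subunit of the replicative helicase, was at 167, 259 and 260 CPM with DHT, and rose by 0.64 ± 0.08 (pooled durations, adjusted p = 0.000267). CDT1, which loads that helicase, rose by 0.64 ± 0.11 (adjusted p = 0.00363) and the replication kinase CDC7 by 0.64 ± 0.10 (adjusted p = 0.00162). MCM2, CDT1 and CDC7 lie outside the naming rule and were chosen after their values were seen.

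The same list was also higher in the vehicle pair, with a median of 0.29 and 59 of 61 genes above 0. The ratio with DHT was the larger one in 50 of 61 genes, against 5407 of all 11976. With edgeR 0 members were called for a difference between the effect with DHT and with vehicle. At an unadjusted p under 0.05 there were 23 (1133 of 17300 over all genes). With vehicle and pooled durations 0 members were called by edgeR, and 41 had an unadjusted p under 0.05 (899 of 17300 over all genes). In a separate C4-2 table, made from mRNA libraries with 3 days of doxycycline and DMSO in place of DHT (2 libraries per group), 26 of the 61 rose (4.25% of 18423 genes called higher) and 0 fell (3.59% called lower).

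Genes of mitosis behaved otherwise in the 2 media. Of 55 G2/M genes, 54 were above 0 in the DHT pair (median 0.44, highest 0.71), but only 17 of 55 in the vehicle pair (median -0.09). The ratio with DHT was the larger one in 54 of 55 genes, against 5407 of all 11976. With pooled durations 41 of 55 rose with DHT and 0 fell, and with vehicle 0 were called by edgeR (5 at an unadjusted p under 0.05), where 0.0116% of all genes were called higher and 0.0231% lower. In the additive model, which averages both media, 2 rose (KIFC1 and NUSAP1), but 47 without the vehicle library that had no doxycycline, and 0 without either library of the DHT pair. Of all genes, 1.99% were called higher and 0.832% lower with DHT, and 2.51% higher in the additive model. DESeq2 called 24 of the 55 higher with DHT. In the separate C4-2 table, without DHT, 5 of the 55 rose and 0 fell, where 4.25% of all genes were called higher and 3.59% lower. The only G2/M gene below 0 in the DHT pair was CKS1B at -0.15, with an interval of -0.53 to 0.24.

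The test of the difference between media called 8 genes with a higher log2 change with DHT than with vehicle (0.0462% of 17300). It called 1 with a lower log2 change with DHT (0.00578%). At an unadjusted p under 0.05 there were 686 and 447. With no filter on low counts 0 were called in either direction. Of the 8, 4 were on the G2/M list. MKI67, the proliferation antigen Ki-67, was at 41.8, 70.6 and 68.6 CPM with DHT after 0, 3 and 30 days and at 84.9, 90.1 and 77.5 CPM with vehicle, a difference in log2 change of 0.78 ± 0.14 (edgeR adjusted p = 0.0421). That call was lost with RLE scaling (adjusted p = 0.0535), with at least 10 reads (0.124) and by DESeq2 (0.142), at differences of 0.77 to 0.78. TOP2A, DNA topoisomerase II alpha, was at 140, 220 and 215 CPM with DHT and 348, 345 and 330 CPM with vehicle (difference 0.70 ± 0.10, adjusted p = 0.0124). For both genes the lowest of the 6 libraries was the one with DHT and no doxycycline, and the vehicle libraries lay close together. In the separate C4-2 table, without DHT, TOP2A rose by 0.35 (edgeR adjusted p = 0.0161). MKI67 changed by 0.11 there (edgeR adjusted p = 0.335).

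CENPF, a kinetochore protein, was at 113, 172 and 173 CPM with DHT and 285, 273 and 239 CPM with vehicle (difference 0.79 ± 0.12, edgeR adjusted p = 0.0124). ASPM, a spindle pole protein, had a difference of 0.90 ± 0.13 (adjusted p = 0.0124). The DHT response of the G2/M list, DHT over vehicle, had a median of -1.02 with no doxycycline, -0.55 after 3 days and -0.53 after 30 days. For the E2F-driven list these medians were -0.79, -0.51 and -0.61. The first of each 3 values shares the DHT library without doxycycline with the ratios above. DHT libraries thus held less mitotic RNA at every level of doxycycline, with the smaller gap after it. A change in the share of dividing cells and a change of RNA per cell cannot be told apart in such bulk samples.

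**Figure D2:**
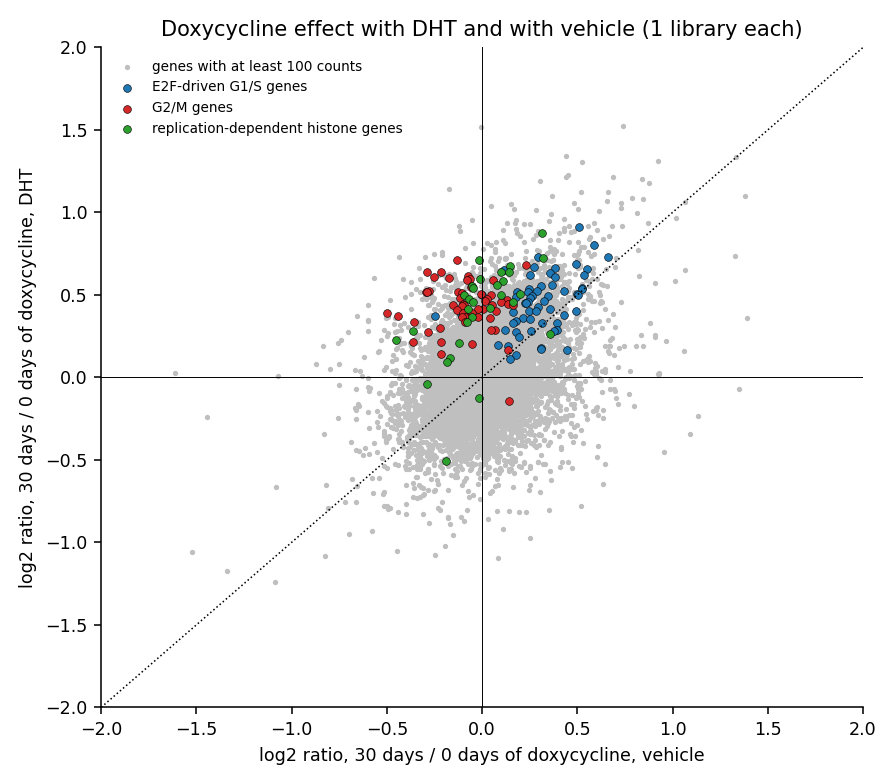
Log2 ratio of 30 days to 0 days of doxycycline with DHT (vertical axis) against that with vehicle (horizontal axis), 1 library per group; grey points are all genes that reached 100 counts in the DHT pair, coloured points 3 lists, and the dotted line marks equal ratios. 2 genes (MIR30A and RB1) lie outside the axes, E2F-driven genes are mostly above 0 on both axes, and G2/M genes are above 0 with DHT and around 0 with vehicle.

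Some genes of DNA repair and of histones rose with DHT. Of 31 homologous recombination and Fanconi genes 12 rose with DHT and 11 in the additive model, with 0 falls in either. Of all genes, 1.99% and 2.51% were called higher, and 0.832% and 1.52% lower. The list median was 0.37 with DHT and 0.20 with vehicle. BRIP1, a helicase that partners BRCA1, was at 18.2, 28.6 and 30.7 CPM with DHT and 34.1, 38.5 and 48.3 CPM with vehicle, and rose by 0.59 ± 0.10 in the additive model (edgeR adjusted p = 0.000485). FANCA, part of the Fanconi core complex, went from 13.6 to 21.6 CPM in the DHT pair and rose with DHT by 0.72 ± 0.13 (adjusted p = 0.00594, and 0.052 by DESeq2). PSMC3IP, a cofactor of strand exchange, was the 1 member below 0 (log2 ratio -0.05, interval -0.56 to 0.46).

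Replication-dependent histone genes, whose messages are made in S phase, had a median of 0.47 over 30 members with DHT and -0.03 with vehicle. Of 31 tested 17 rose and 1 fell with DHT, where 1.99% of all genes were called higher and 0.832% lower. In the additive model 8 rose and 1 fell, against 2.51% and 1.52% of all genes. HIST1H4A was at 32.9, 55.2 and 60.3 CPM with DHT and 91.6, 106 and 114 CPM with vehicle, and rose with DHT by 0.82 ± 0.10 (edgeR adjusted p = 0.000362). The linker histone gene HIST1H1B was at 175, 254 and 287 CPM with DHT and 475, 500 and 471 CPM with vehicle. Its difference between media was 0.62 ± 0.11 (adjusted p = 0.0509). HIST2H2BE was the 1 that fell, from 332 to 234 CPM in the DHT pair (pooled change -0.44 ± 0.07, adjusted p = 0.00303). Copies of histone genes are alike in sequence, and how reads with several alignments were counted was not given in the sources used here, so single copies are uncertain.

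Among 28 tested genes of the RB family, E2F factors, cyclins and CDKs, 5 rose with DHT and 1 fell (RB1). The 5 were RBL1, MYBL1, E2F7, E2F1 and CDK2. Of all genes, 1.99% were called higher with DHT and 0.832% lower. RBL1, which encodes the RB relative p107, was at 29.7, 50.2 and 51.4 CPM with DHT and 55.7, 67.3 and 79.9 CPM with vehicle, and rose by 0.62 ± 0.09 in the additive model (edgeR adjusted p = 0.000119). RBL2, the other relative, stood at 170 and 146 CPM in the DHT pair (adjusted p = 0.15 with pooled durations). MYBL1, a MYB family transcription factor, was at 15.7, 25.5 and 26.0 CPM with DHT and 17.9, 18.9 and 18.5 CPM with vehicle, and rose with DHT by 0.72 ± 0.13 (adjusted p = 0.00402). CDK6, a G1 kinase that phosphorylates RB, was higher only at 30 days: 13.3, 13.2 and 24.7 CPM with DHT and 9.83, 10.6 and 15.0 CPM with vehicle (additive 0.76 ± 0.12, adjusted p = 0.000317). CCND1, cyclin D1, its partner, fell by 0.35 ± 0.06 in the additive model (adjusted p = 0.00161), from 401 to 303 CPM in the DHT pair. Without the 30-day DHT library the additive calls of CDK6 (0.57, adjusted p = 0.0564) and CCND1 (-0.31, 0.107) were lost. By DESeq2 the calls with DHT of MYBL1 (adjusted p = 0.0672) and E2F7 (0.0988) were lost.

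Of 8 CDK inhibitor genes, CDKN3 rose with DHT (0.64 ± 0.12, edgeR adjusted p = 0.00541) and CDKN1C fell. Over all genes 1.99% were called higher with DHT and 0.832% lower. CDKN1C, which encodes p57, was at 23.0, 11.4 and 13.6 CPM with DHT and 16.7, 14.3 and 10.5 CPM with vehicle (additive -0.72 ± 0.14, adjusted p = 0.00202). CDKN1A, which encodes p21, was at 127 and 136 CPM in the DHT pair (additive adjusted p = 0.715). In the list of Polycomb repressive complex 2 and DNA methylation genes 3 of 17 rose with DHT. In the additive model 6 rose, where 2.51% of all genes were called higher. DNMT1, the maintenance DNA methyltransferase, was at 107, 154 and 167 CPM with DHT and 198, 216 and 235 CPM with vehicle, and rose by 0.42 ± 0.08 (additive adjusted p = 0.00187, and 0.0564 at 0.34 without the 30-day DHT library). PHF19, a Polycomb subunit, rose with DHT by 0.78 ± 0.18 (adjusted p = 0.024).

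**Figure D3:**
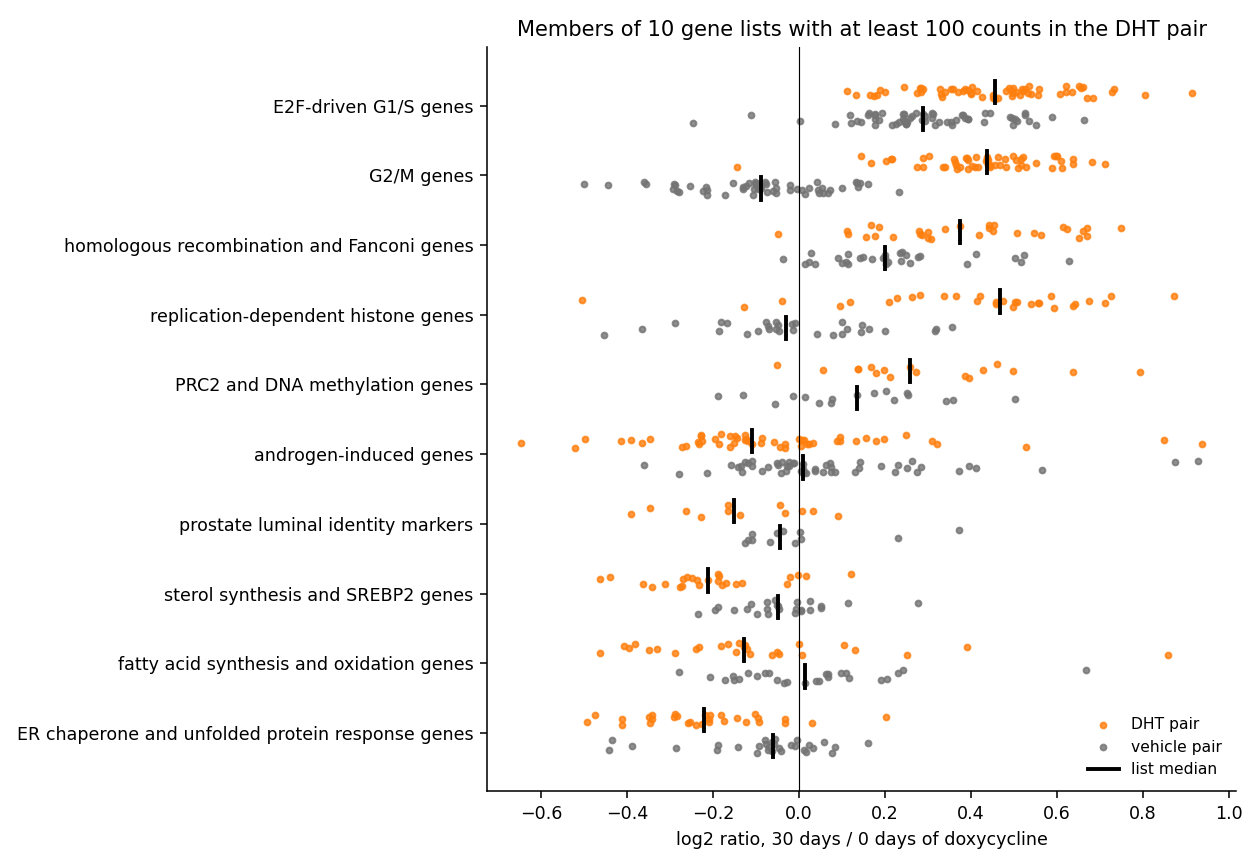
Log2 ratio of 30 days to 0 days of doxycycline (horizontal axis) for members of 10 gene lists (rows) with at least 100 counts in the DHT pair; orange points are the DHT pair, grey points the vehicle pair, and black bars the list medians. The 61 E2F-driven genes are all above 0 with DHT, and sterol genes have a median of -0.21 with DHT and -0.05 with vehicle.

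Some androgen-induced genes fell with DHT while most were not called. The list's median log2 ratio in the DHT pair was -0.11, with 34 of 53 members below 0 (6287 of 11976 over all genes), and in the vehicle pair it was 0.01. Of 56 tested, 6 fell with DHT (KLK2, KLK3, TMPRSS2, STEAP2, AZGP1 and GNMT) and 1 rose (CENPE, also on the G2/M list). Over all genes 0.832% fell with DHT and 1.99% rose. The additive model gave 7 falls and 5 rises, against 1.52% and 2.51% of all genes. KLK3, prostate-specific antigen, was at 8392, 6826 and 6396 CPM with DHT and 3614, 3551 and 3349 CPM with vehicle, and fell with DHT by 0.34 ± 0.07 on the log2 scale (edgeR adjusted p = 0.0105). Both doxycycline libraries with DHT were below the untreated one and above all vehicle libraries. Without the 30-day DHT library the change was -0.29 with an adjusted p of 0.0659. The difference between media had no call (-0.25 ± 0.10, adjusted p = 0.703).

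TMPRSS2, a membrane protease, was at 2272, 1786 and 1786 CPM with DHT and 467, 400 and 450 CPM with vehicle (pooled change -0.34 ± 0.08, edgeR adjusted p = 0.0184). GNMT, glycine N-methyltransferase, went from 104 to 66.1 CPM in the DHT pair and from 13.7 to 13.4 CPM in the vehicle pair (pooled change -0.57 ± 0.09, adjusted p = 0.00155). FOXA1, a pioneer transcription factor of luminal cells, was at 500 and 533 CPM in the DHT pair and was not called (edgeR adjusted p = 0.754 with pooled durations). MAK, a kinase induced by androgen, was higher at 30 days in both media: 7.07, 7.65 and 13.6 CPM with DHT and 2.54, 3.05 and 4.75 CPM with vehicle (additive 0.93 ± 0.17, adjusted p = 0.00153, and 0.108 at 0.85 without the 30-day DHT library). The DHT response of the list, DHT over vehicle, had a median of 1.55 with no doxycycline and 1.45 after 30 days.

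Lipid genes lay on the same side. Of 25 sterol synthesis genes with enough counts, 23 were below 0 in the DHT pair (median -0.21, vehicle pair -0.05), and 4 fell with DHT (FDFT1, LSS, MSMO1 and TM7SF2). FDFT1, squalene synthase, was at 1536, 1153 and 1132 CPM with DHT and 445, 454 and 443 CPM with vehicle, and fell with DHT by 0.42 ± 0.07 on the log2 scale (edgeR adjusted p = 0.00195). Its difference between media was -0.41 ± 0.10 (adjusted p = 0.162). Of 29 fatty acid genes 4 fell with DHT and 0 rose, where 0.832% of all genes were called lower and 1.99% higher. In the separate C4-2 table, with 3 days of doxycycline and no DHT, 7 of 26 sterol genes rose and 0 fell. Of 28 fatty acid genes tested there 6 rose and 3 fell. All genes of that table were called higher in 4.25% and lower in 3.59% of cases. ACSS2, which makes acetyl-CoA from acetate, went from 197 to 143 CPM in the DHT pair and from 84.1 to 80.1 CPM in the vehicle pair (pooled change -0.48 ± 0.07, adjusted p = 0.00155). ELOVL2, a fatty acid elongase, rose in the additive model by 0.80 ± 0.10 (adjusted p = 1.22e-05), with 32.7, 38.8 and 59.4 CPM with DHT and 8.97, 9.59 and 14.3 CPM with vehicle. LDHD, a mitochondrial lactate dehydrogenase, fell with DHT by 0.73 ± 0.09 (adjusted p = 0.000267), from 119 to 68.0 CPM.

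Chaperones of the endoplasmic reticulum were below 0 in 28 of 30 cases (median -0.22, vehicle pair -0.06). With pooled durations 0 were called by edgeR (12 at an unadjusted p under 0.05, as had 2688 of all 17300 genes). In the additive model 5 fell, where 1.52% of all genes were called lower. In the separate C4-2 table, without DHT, 7 of 30 rose and 3 fell, where 4.25% of all genes were called higher and 3.59% lower. MANF, a secreted stress protein, was at 167, 147 and 118 CPM with DHT and 104, 110 and 98.2 CPM with vehicle (additive -0.30 ± 0.08, adjusted p = 0.026). The MANF call was lost by DESeq2 (adjusted p = 0.147), without the untreated DHT library (-0.14, 0.427) and without the 30-day DHT library (-0.16, 0.709). Of 37 ATF4 stress genes 2 fell with DHT (NUPR1 and PYCR1), where 0.832% of all genes were called lower. In the separate C4-2 table, without DHT, 23 of the 37 rose and 0 fell. Of 35 hypoxia and glycolysis genes 2 fell with DHT and 6 in the additive model, where 1.52% of all genes were called lower. Among the 6 was BNIP3, a mitophagy receptor, from 188 to 137 CPM in the DHT pair (additive -0.42 ± 0.07, adjusted p = 0.000249). Cytosolic ribosomal protein genes had a median of -0.14 over 77 members and close to 0 with vehicle, with 0 called with DHT by edgeR (24 of 78 at an unadjusted p under 0.05, against 2688 of 17300) and 1 fall in the additive model.

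The largest ratio belonged to MIR30A (ENSG00000207827), the gene of microRNA miR-30a. Its mature strands in RefSeq (GRCh38.p14) are shown because no other gene changed as much, with the seed (bases 2 to 8) in capitals.
hsa-miR-30a-5p (chr6:71403595-71403616, minus strand): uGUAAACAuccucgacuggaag
hsa-miR-30a-3p (chr6:71403554-71403575, minus strand): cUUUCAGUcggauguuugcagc

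MIR30A was at 2.19, 116 and 112 CPM with DHT after 0, 3 and 30 days and at 1.55, 88.5 and 78.9 CPM with vehicle. All 4 doxycycline libraries stood apart from both others, and the DHT pair's log2 ratio was 5.59 (interval 5.16 to 6.25). MIR30A rose by 5.66 ± 0.12 in the additive model (edgeR adjusted p = 1.68e-22). In the second C4-2 table, with 3 days of doxycycline and DMSO, it rose by 5.43 (adjusted p = 8.19e-15). Whether its reads came from its own locus or from the hairpin construct was not tested. STAMBP, a deubiquitinase, fell in both media: 62.0, 31.4 and 29.2 CPM with DHT and 42.6, 24.9 and 24.0 CPM with vehicle (additive -0.97 ± 0.09, adjusted p = 5.16e-08). In the second table its change was 0.00 (adjusted p = 0.989).

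Several of the largest changes were larger after 30 days than after 3. ADD3, gamma adducin of the membrane skeleton, was at 63.8, 71.3 and 30.5 CPM with DHT and 136, 134 and 47.2 CPM with vehicle. The 30-day library was the lowest in each medium, and ADD3 fell by 1.33 ± 0.09 in the additive model (edgeR adjusted p = 7.46e-11). SLITRK6, a neuronal membrane protein, was at 8.01, 11.3 and 23.3 CPM with DHT and 1.86, 1.75 and 3.19 CPM with vehicle (additive 1.36 ± 0.18, adjusted p = 2.6e-05). The SLITRK6 change was 0.81 without the untreated DHT library (adjusted p = 0.191) and 1.01 without the 30-day DHT library (0.0907), so the call was lost. PEG10, an imprinted gene of retroviral origin seen in neuroendocrine prostate cancer, was at 108, 117 and 205 CPM with DHT and 30.5, 29.0 and 48.9 CPM with vehicle (additive 0.82 ± 0.08, adjusted p = 1.3e-07). LOX, lysyl oxidase, was at 9.40, 15.4 and 23.6 CPM with DHT and 2.66, 2.88 and 5.16 CPM with vehicle (additive 1.22 ± 0.16, adjusted p = 2.6e-05).

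RDH16, a retinol and sterol dehydrogenase, was at 2.33, 6.65 and 6.93 CPM with DHT and 6.99, 5.70 and 6.95 CPM with vehicle. Only the DHT library without doxycycline was low. It rose with DHT by 1.54 ± 0.28 (edgeR adjusted p = 0.00403), and the difference between media was 1.71 ± 0.35 (adjusted p = 0.082). C18orf56, a transcript opposite TYMS, went from 4.44 to 10.3 CPM in the DHT pair, and TYMS from 8.67 to 13.9 CPM. The strand setting of the counting was not given, so reads of this pair cannot be told apart. ID2, an inhibitor of basic helix-loop-helix factors, went from 16.9 to 7.83 CPM in the DHT pair and from 9.03 to 9.56 CPM in the vehicle pair, without a call (adjusted p = 0.0696 with pooled durations and 0.115 in the additive model). The remaining rises past 2-fold among the 12 largest were C5, STXBP6, LEF1, PREX2, CXCL12 and PHLDB2, at 1.20 to 1.34, all with additive calls. Without the untreated DHT library the additive call was lost for C5 (0.42, adjusted p = 0.495), LEF1 (0.50, 0.225), PREX2 (0.47, 0.217), PHLDB2 (0.70, 0.485) and CXCL12 (0.75, 0.0516). STXBP6 lost it without the 30-day DHT library (0.59, 0.0551). The remaining falls had log2 ratios of -1.24 to -0.95.

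**Figure D4:**
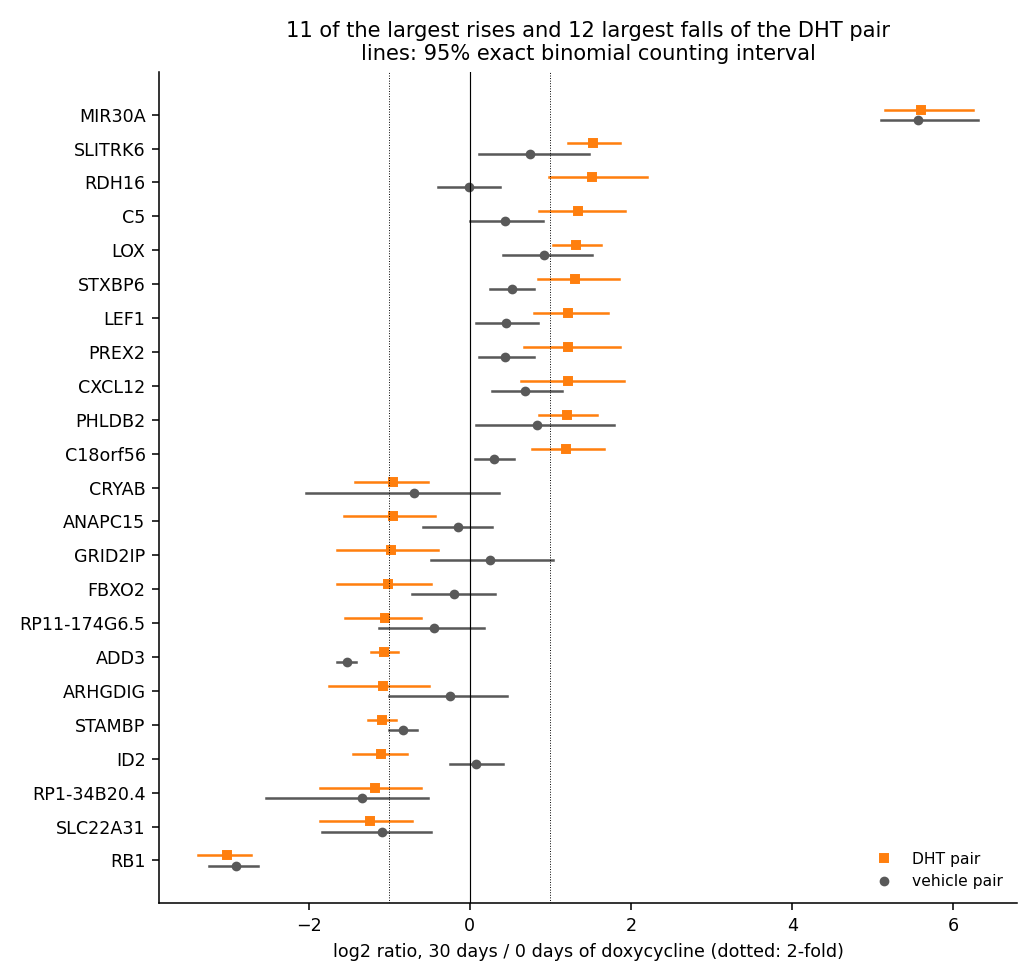
Log2 ratio of 30 days to 0 days of doxycycline (horizontal axis) for 11 of the largest rises and the 12 largest falls of the DHT pair (rows), with squares for the DHT pair, circles for the vehicle pair, and lines for 95% exact binomial counting intervals, which hold no spread between samples. MIR30A, STAMBP and RB1 have like ratios in both pairs, while RDH16 stands at 1.52 with DHT and -0.01 with vehicle.

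Lists with few or no calls included the LSD1-CoREST complex and its partners (edgeR called 0 of 21 in either model, with 2 at an unadjusted p under 0.05 in each) and p53 targets (0 of 22, with 4 such genes under pooled durations and 1 in the additive model). Over all 17300 genes such p-values numbered 2688 and 2793. The complex had a median ratio of 0.04, and the p53 targets 0.15. Of 40 interferon-stimulated genes 1 rose with DHT (OAS3), where 1.99% of all genes were called higher. In the additive model 5 rose and 1 fell, where 2.51% of all genes were called higher and 1.52% lower. KLF4, a transcription factor of the immediate early list, was at 19.6, 29.0 and 38.2 CPM with DHT and 17.1, 21.9 and 23.0 CPM with vehicle (additive 0.70 ± 0.11, edgeR adjusted p = 0.00025, and 0.0583 at 0.48 without the 30-day DHT library). BIRC3, an inhibitor of apoptosis, rose with DHT by 0.83 ± 0.16 (adjusted p = 0.00618).

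The 6 libraries held 14898454 to 16856486 counted reads, with 14928765 and 15074113 in the DHT pair. All 12 luminal identity markers had at least 100 counts in the DHT pair, and 3 fell with DHT (KLK2, KLK3 and TMPRSS2). Of all genes, 0.832% were called lower with DHT. The KLK2 call was lost without the 3-day (-0.26, adjusted p = 0.111) or the 30-day DHT library (-0.30, 0.0718). Of 22 neuroendocrine markers 4 had at least 100 counts in the DHT pair. Of 7 tested, 1 rose with DHT (ONECUT2) and 1 in the additive model (PEG10). Over all genes 1.99% and 2.51% were called higher. The ONECUT2 call was lost with RLE scaling (adjusted p = 0.051), at 10 reads (0.0745), by DESeq2 (0.375) and without either doxycycline library with DHT (0.0606 and 0.0908). CHGA, a neuroendocrine granule protein, had 2 counts without and 0 with doxycycline in the pair. Markers of other cells were low, with summed levels of 3.06 and 4.57 CPM for 10 leukocyte, 13.0 and 12.9 CPM for 10 fibroblast, 5.83 and 7.90 CPM for the 7 of 8 endothelial markers in the table, and 32.2 and 32.0 CPM for 9 basal markers without and with doxycycline. PTPRC, DCN, KRT5 and TP63 were at 0 counts in both.

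Calls with DHT rested on the filter for low counts. With every gene that had a read, 6 genes rose and 3 fell in place of 345 and 144, 1 of 61 E2F-driven and 1 of 55 G2/M genes were called, and the prior degrees of freedom went from 15.9 to 6.64. The changes themselves hardly moved, as for E2F1 (0.59 and 0.58) and MKI67 (0.74 and 0.73). With at least 10 reads over the 6 libraries, a limit chosen after seeing this, 264 rose and 101 fell, with 37 E2F-driven and 36 G2/M genes. Leaving out single libraries says little about these counts. The untreated vehicle library is alone in its group and does not enter the test with DHT. Without it the E2F-driven and G2/M counts stayed at 40 and 41. Without the 3-day DHT library they were 38 and 40, but DHT then has 1 library on each side and all spread comes from the vehicle libraries.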

How the data were processed

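RNA was measured in C4-2-tet-shRB cells with a stranded total RNA kit (mRNA kit for the second table), per the labels' protocols. The submitters' processing notes name FastQC 0.11.9, STAR 2.7.2 and featureCounts 1.6.4 and the builds hg19 and GRCh37. Not given in the sources used here are the strand setting, the annotation version and how multi-mapped reads were treated. The authors deposited raw counts per gene, and 0 columns matched no sample. Within each group the 2 columns share a library name and index but not a lane, so they were summed and counted as 1 library although the labels number them as replicates (chi-square per degree of freedom between lanes 0.983 to 1.01 over genes with at least 10 counts, below the limit of 1.5).

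Log2 ratios used TMM-scaled counts with a prior count of 2 and exact binomial (Clopper-Pearson) 95% intervals, which hold counting error only and were computed without the prior. Models were edgeR 4.0.16 quasi-likelihood fits in R 4.3.3 (limma 3.58.1) after filterByExpr, with Benjamini-Hochberg adjustment over 17300 genes. DESeq2 1.42.0, other scalings, filters and left-out libraries were alternatives. DESeq2 gave no adjusted p for some genes that edgeR called, among them PHF19, RDH16, LOX, SLITRK6, CLSPN, CDK6, MAK and CDKN1C. The additive fit had 24.4 prior degrees of freedom and the pooled-duration fit 15.9. Named were RB1, E2F1, KDM1A and KLK3, the 12 largest rises and falls at 100 counts or more, up to 4 per direction of each list, and up to 5 per direction with the smallest p of the difference between media. Further genes that the text names to spell out a short count, and cell type markers at 0, were chosen after their values were seen. Members and gene lists were chosen with earlier results of these data known. Some genes that the naming rule picks are not reported here.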

Additional observations from a re-analysis of the deposited data

Results flagged for a closer look

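The doxycycline effect with DHT differed from that with vehicle for 9 genes by the edgeR test of the difference (adjusted p under 0.05, log2 values, DHT minus vehicle). The differences were 0.79 for CENPF, 0.90 for ASPM, 0.70 for TOP2A and 0.78 for MKI67. HIST1H2AH, a histone H2A gene, had 0.76, with 63.2, 100 and 97.7 CPM with DHT after 0, 3 and 30 days and 179, 177 and 162 CPM with vehicle. CASC5, a kinetochore scaffold, had 0.71, with 56.7, 95.2 and 97.4 CPM with DHT and 137, 147 and 144 CPM with vehicle. PRR11 had 0.82 and NCAPG, a condensin subunit, 0.69. The pseudogene AC010970.2 was the 1 with a negative difference, -1.18. It was at 2271, 1578 and 1474 CPM with DHT and 717, 1317 and 920 CPM with vehicle. Its doxycycline libraries were thus lower than the untreated one with DHT and higher with vehicle. Each value rests on the single DHT and single vehicle library without doxycycline. The MKI67 call was lost with RLE scaling (adjusted p = 0.0535), at 10 reads (0.124) and by DESeq2 (0.142), the AC010970.2 call by DESeq2 (1.00), and all 9 with no filter on low counts. The 8 calls in the direction of DHT numbered 6 with RLE scaling and 5 at 10 reads.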

How the results depend on the processing

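A reversal of direction was looked for only in named genes past 2-fold in the DHT pair or called in a model, and none reversed. Smaller ratios, uncalled genes, list medians and counts of calls were not checked for it. In the DHT pair, genes past 2-fold numbered 31 higher and 9 lower, against 179 and 101 with at least 20 counts, 1736 and 1211 with no minimum, 284 and 99 at 1.5-fold, and 41 to 50 and 15 to 17 with 1 lane left out. The E2F-driven median of 0.46 was 0.51 by library size and 0.43 to 0.45 with a lane left out, and the G2/M median of 0.44 was 0.49 and 0.40 to 0.47. Additive calls of 434 higher and 263 lower were 95 and 69 by DESeq2, and 140 to 1075 and 64 to 876 with 1 library left out. The highest came without the untreated vehicle library and the lowest without the 30-day DHT library. Pooled-duration calls with DHT of 345 and 144 were 6 and 3 with no filter, 159 and 53 by DESeq2, and 300 to 656 and 80 to 412 with 1 library left out. E2F-driven calls of 40 became 1 with no filter and 26 by DESeq2, and G2/M calls of 41 became 1 and 24. The difference between media gave 8 and 1 calls, 0 and 0 with no filter, 5 and 1 with at least 10 reads, 7 and 0 by DESeq2, and 50 to 116 and 7 to 23 with 1 library left out. The cause of these shifts was not tested. No paired analysis was possible because both replicate numbers of a group are lanes of 1 library.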
